A study of Daphnia magna with 16 samples.

Results

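The 2 bi-allelic tryptophan hydroxylase (TRH) mutant clones of *Daphnia magna*, clone 16 and clone 17, were compared with the mono-allelic mutant clone T+, to see what losing the second TRH allele adds to losing the first. The members are the 12 arrays of these clones among the 16 of the series, 8 arrays of the bi-allelic clones and 4 of T+. They were chosen by the sample labels, which give clone 16 and clone 17 as -/-, clone 13 (T+) as +/- and clone F (wild type, W) as +/+. The mean of the clone 16 and clone 17 means was set against the T+ mean, and the 4 wild type arrays are given beside them only as a level.

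Tryptophan hydroxylase is the rate-limiting enzyme of serotonin synthesis. It adds a hydroxyl group to tryptophan, and the product is then decarboxylated to serotonin. Tryptophan that does not enter this route is broken down mainly through kynurenine, a route that tryptophan 2,3-dioxygenase opens. In arthropods serotonin acts on hormone release, growth and reproduction. Growth goes through moults, in which chitinases digest the old cuticle while new chitin and cuticle proteins are laid down.

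Each array was hybridised with total RNA of 1 whole female, labelled with a single dye. Clone 16 and clone 17 carried CRISPR-Cas9 in-del mutations in both TRH alleles, T+ carried such a mutation in 1 allele, and the wild type carried none. All 16 females came from clonal cultures and had no other treatment, and each mutant genotype name stands for a single clonal line. T+ is therefore 1 line, and a difference from T+ cannot be told apart from a difference between lines. The 4 arrays of a clone are 4 females, so the limma p-values measure the spread among females of a clone. The exact permutation p-values treat the bi-allelic arrays as 1 group, so the difference between clone 16 and clone 17 enters their spread. The labels give an age of 5 days and also of 4 days, whereas the study's methods describe adult females. No source used here ties a probe to TRH itself, so the targeted gene could not be read as a check of the labels. In whole females, fewer cells of a type and less RNA per cell cannot be told apart.

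Replicate 5 of clone 17 and replicate 5 of T+ stood apart from the others of their clone. On the first principal component of the 12 mutant arrays, which held 76.7% of their variance over 17270 probes, the clone 16 arrays scored 77.4 to 107 (log2 units summed over probes). Clone 17 scored -59.7, 96.2, -103.6 and -100 in replicates 3, 5, 7 and 9, and T+ scored -99.0, 90.9, -103.6 and -100.3. Both replicates 5 thus lay with the clone 16 arrays and not with their own clones. The wild type arrays, projected on the same axis, scored -47.5 to 46.1. Mean scores were 26.5 in the bi-allelic arrays and -53.0 in T+, a difference of 79.5 with an exact permutation p = 0.137 (two-sided, 495 permutations, smallest possible 0.00202). Clones accounted for 49.7% of the variance of the score and the contrast of genotypes for 15.5%. Replicate 5 of clone 16, clone 17 and T+ all lay in the fourth column of their slides. The other 9 mutant arrays lay in columns 1 to 3, clone 16 replicates 3, 7 and 9 included. The file of wild type replicate 7 names no column, but its spots start where the fourth column does, and its score was 46.1. For the probe CUST_48867 clone 16 had 7.31 to 9.90, while clone 17 replicate 5 had 4.87 and T+ replicate 5 had 4.43. For CUST_19559 clone 16 had 5.18 to 7.09, and these 2 arrays had 6.67 and 6.93. CUST_48867 was called with both arrays under their labels, and which clone they hold was not tested. The labels and protocols do not settle whether the arrays labelled clone 17 replicate 5 and T+ replicate 5 hold those clones, and both were kept under their labels. Clone 17 and T+ means rest on this. For the contrast of the bi-allelic clones with T+, named probes whose call changed without the 2 arrays are given both ways. The 2 arrays were singled out for lying at the clone 16 end of the first component. Leaving them out by itself lowers the spread within clone 17 and T+ and widens their distance from clone 16 along it. Calls and p-values without them therefore follow in part from that choice.

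**Figure D1:**
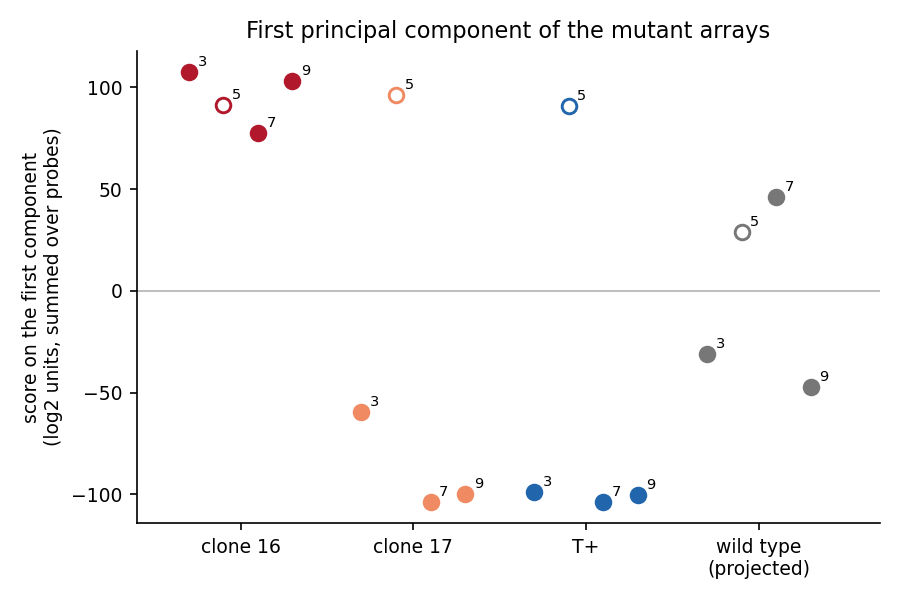
Score of each array (vertical axis, log2 units summed over probes) on the first principal component of the 12 mutant arrays, by clone, with the wild type arrays projected. Digits are replicate numbers and open circles are replicate 5. Replicate 5 of clone 17 (96.2) and of T+ (90.9) lies with the clone 16 arrays (77.4 to 107), while the other T+ arrays lie between -103.6 and -99.0.

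The number of probes above background was compared next. The scanner software marked 12418 to 14688 gene probes as well above background in the bi-allelic arrays and 11220 to 13244 in T+. The wild type had 9906 in replicate 7 and 12611 to 13674 in its other arrays. The means were 13340 in bi-allelic arrays and 12250 in T+ arrays, and the difference of 1092 probes did not pass the exact permutation test (two-sided, p = 0.0525). Without replicate 5 of clone 17 and of T+ the difference was 1544 (exact permutation p = 0.0167).

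Few transcripts differed between the bi-allelic clones and T+ beyond the spread between females when all arrays were used. Of 17286 probes tested with limma, 9 (0.0521%) were called between the bi-allelic clones and T+, that is, they had a Benjamini-Hochberg adjusted p under 0.05 and a difference of at least 1.5-fold. Of these, 4 were higher (0.0231%) and 5 were lower (0.0289%) in the bi-allelic clones. The 9 probes belong to 7 gene models and 1 probe with no gene model in the tables used. At an unadjusted p under 0.05 there were 853 higher and 734 lower probes, 1587 together, where 864 would be expected if no probe differed. The median half-width of the 95% interval was 0.46 log2 units. That interval lay inside 2-fold in either direction for 12186 probes (70.5%) and wholly beyond 2-fold for 16. It lay inside 1.5-fold, the limit of a call, for 7730 probes (44.7%), and for the others a 1.5-fold difference was not excluded.

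The bi-allelic clones were also compared with T+ singly. Clone 16 against T+ gave 8 called probes (0.0463%), 5 higher and 3 lower, and 3572 probes at an unadjusted p under 0.05. Clone 17 against T+ gave 5 (0.0289%), 2 higher and 3 lower, and 549 at an unadjusted p under 0.05, where 864 would be expected in each contrast if no probe differed. Both contrasts use the same T+ arrays. Of the 9 probes called for the mean of the clones, 7 were also called for clone 16, 5 for clone 17 and 3 in all of these contrasts, and all 9 had the same sign in both clones, although the clone 17 difference of CUST_48867 was 0.01. Between clone 16 and clone 17 themselves 1 probe was called.

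The number of calls depended on the 2 arrays that stood apart, while the 9 probes were called with and without them. The rise in calls without them follows in part from how these arrays were chosen. Without replicate 5 of clone 17 and of T+, 1498 probes (8.67%) were called between the bi-allelic clones and T+, 720 higher and 778 lower, and all 9 probes were among them. Without the T+ array alone 406 were called, 170 higher and 236 lower, and without the clone 17 array alone 11, and both sets held all 9 probes. Without both arrays, clone 16 gave 3193 calls against T+ (1661 higher, 1532 lower) and clone 17 gave 1, and clone 16 against clone 17 gave 2696. Array weights, which give less weight to arrays far from their group, gave 2278 calls in the contrast of genotypes, 4087 for clone 16 and 26 for clone 17. Leaving out another T+ array lowered the count. Without T+ replicate 3, 7 or 9, 3, 4 and 3 probes were called in the contrast of genotypes, all of them among the 9.

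**Figure D2:**
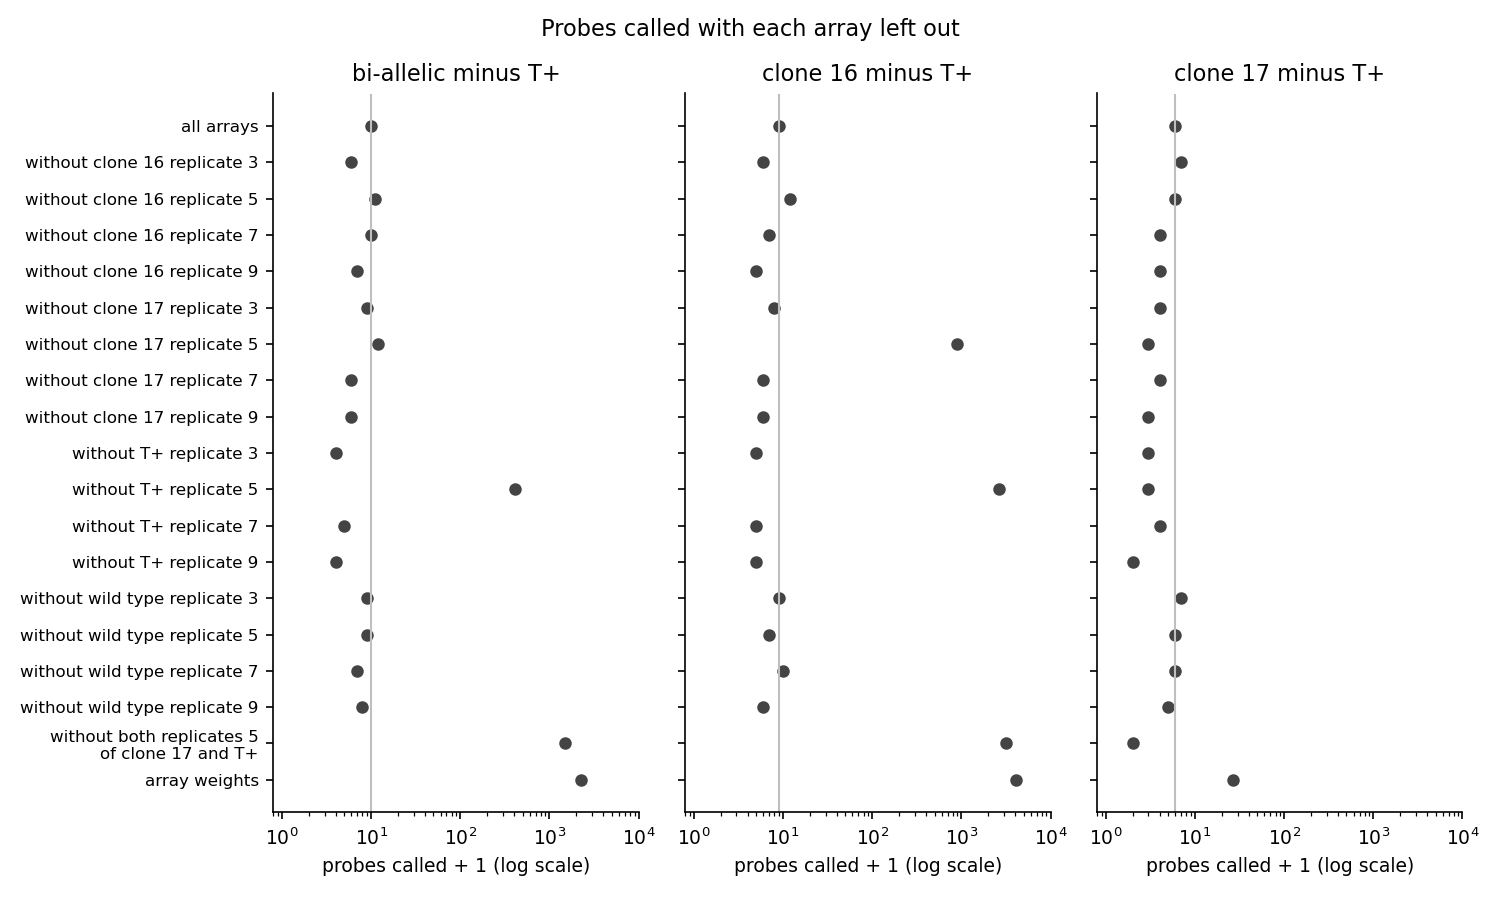
Number of probes called plus 1 (horizontal axis, log scale) with all arrays, without each array in turn, without replicate 5 of both clone 17 and T+, and with array weights, for the bi-allelic clones, clone 16 and clone 17 against T+. The grey line is the count with all arrays (9, 8 and 5). Leaving out T+ replicate 5 raised the bi-allelic count to 406 and the clone 16 count to 2642, whereas the other T+ arrays left out singly gave 3 or 4 in both.

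Gene models here are named by the identifiers that the study's supplement gives (Dapma7bEVm numbers), and only a chitinase among the called genes has a name in the tables used. Probe names are given without their common ending, _PI429715507. All levels are log2 quantile-normalised fluorescence, listed in the order of replicates 3, 5, 7 and 9. A level of 1 probe cannot be set against that of another.

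The transcript of Dapma7bEVm011064 was present in T+ and not well above background in any array of the other clones. Its probe CUST_33104 had 3.65, 3.65, 3.65 and 3.69 in clone 16 and 3.64, 4.32, 3.63 and 3.67 in clone 17, against 8.39, 6.86, 8.01 and 8.17 in T+ and 5.05, 5.74, 3.65 and 3.65 in the wild type. All 8 bi-allelic arrays lay below all 4 T+ arrays, and so did all wild type arrays. Since no bi-allelic array measured it, the difference is a bound, at least 7.12-fold lower (at least 7.66-fold in clone 16 and 6.61-fold in clone 17). The measured means were 3.74 in bi-allelic arrays and 7.86 in T+ arrays, and the fit gave a log2 difference of -4.12 ± 0.38 (SE) with a limma adjusted p = 0.00061. It was called for each clone as well, and without any 1 of the 16 arrays.

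Dapma7bEVm015932 had the opposite pattern, with both of its called probes dimmer in T+ than in every bi-allelic array. CUST_83287 had 7.14, 6.84, 6.76 and 6.99 in clone 16 and 6.92, 6.87, 6.57 and 6.76 in clone 17, against 5.38, 5.31, 5.21 and 5.06 in T+ and 7.04, 6.93, 6.10 and 6.50 in the wild type. It was well above background in 8 of 8 bi-allelic arrays, 0 of 4 T+ arrays and 3 of 4 wild type arrays. The bi-allelic level was at least 2.72-fold higher (log2 difference 1.61 ± 0.16 SE, limma adjusted p = 0.00079).

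CUST_83289, on the same gene model, had 6.46, 6.17, 6.51 and 6.53 in clone 16 and 6.18, 6.25, 5.81 and 6.02 in clone 17, against 5.02, 5.17, 5.01 and 4.69 in T+ and 6.24, 6.17, 5.84 and 5.70 in the wild type. The groups did not overlap. It was well above background in 6 bi-allelic arrays and no T+ array. The difference was 1.87-fold against the lowest detected signal, no firm bound (log2 difference 1.27 ± 0.14 SE, limma adjusted p = 0.0014). Both probes were called for each clone separately and without any 1 of the 16 arrays. With another background correction (normexp) the log2 difference was 0.81 for CUST_83287, still called, and 0.46 for CUST_83289, which was then under the 1.5-fold limit and not called. In both, T+ lay below all wild type arrays and the bi-allelic arrays overlapped with the wild type.

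Chitotriosidase-1, a chitinase of the glycosyl hydrolase type that cleaves chitin, was the only named gene that was called. Its probe CUST_33489 (Dapma7bEVm014956) had 8.77, 8.24, 8.57 and 8.23 in clone 16 and 8.71, 7.35, 7.55 and 8.10 in clone 17, against 6.50, 7.11, 6.47 and 6.57 in T+ and 8.40, 8.50, 8.44 and 8.38 in the wild type. All bi-allelic arrays exceeded all T+ arrays, with clone 17 replicate 5 (7.35) and T+ replicate 5 (7.11) the closest pair. The log2 difference was 1.53 ± 0.22 (SE), or 2.88-fold, with a limma adjusted p = 0.021. Clone 16 was 1.79 ± 0.25 higher (adjusted p = 0.021), and clone 17 was 1.27 ± 0.25 above T+ without passing (adjusted p = 0.30). The difference between the 2 clones was 0.52 (adjusted p = 0.34). The call was kept without 11 of the 16 arrays singly and lost without T+ replicate 3, 7 or 9, clone 16 replicate 3 or clone 17 replicate 9, with limma adjusted p-values of 0.0095 to 0.13 over the 16. It was also lost with the column of the slide as a block (adjusted p = 0.10), with the mutant arrays alone and without the filter on dim probes.

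The other 3 probes of the chitinase gene model also lay above T+ but were not called. CUST_23637 had 8.15, 7.68, 7.87 and 7.61 in clone 16 and 8.16, 6.62, 6.87 and 7.51 in clone 17, against 5.86, 6.67, 5.82 and 6.06 in T+ and 7.81, 7.67, 8.01 and 7.70 in the wild type. The log2 difference was 1.45 ± 0.25 (SE, limma adjusted p = 0.073), and only T+ replicate 5 reached the bi-allelic range. CUST_23641 was well above background in 5 bi-allelic arrays and no T+ array. It was 2.02-fold higher against the lowest detected signal, no firm bound (log2 difference 1.52 ± 0.31, limma adjusted p = 0.26). CUST_101191 differed by 1.11 ± 0.22 (limma adjusted p = 0.23). Without replicate 5 of clone 17 and of T+, all 4 probes were called, at log2 differences of 1.77, 1.76, 1.92 and 1.34 for CUST_33489, CUST_23637, CUST_23641 and CUST_101191. The 4 probes read 1 transcript model and are not independent measurements of it. In all 4 the bi-allelic mean lay between the T+ mean and the wild type mean.

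**Figure D3:**
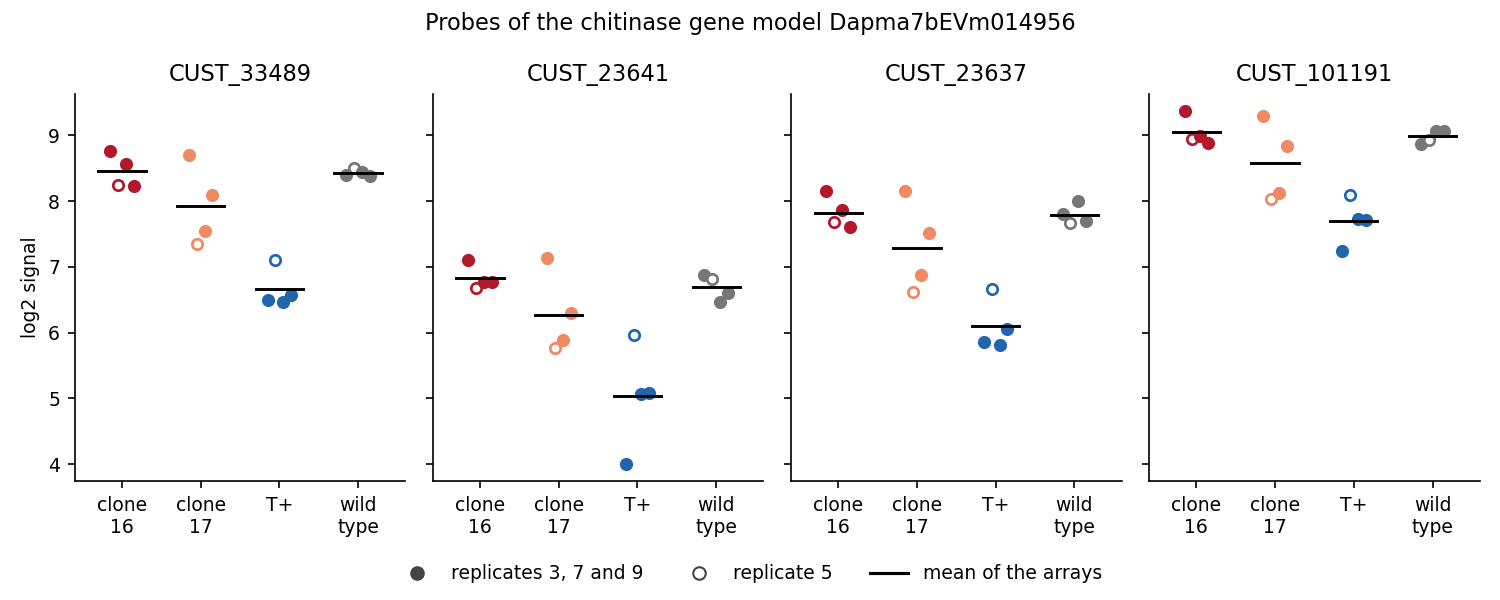
Log2 signal of the 4 probes of the chitinase gene model Dapma7bEVm014956 in each array, by clone, with black lines for the means of 4 arrays and open circles for replicate 5. T+ was lowest in each panel, and in CUST_33489 the T+ arrays (6.47 to 7.11) lay below all 8 bi-allelic arrays (7.35 to 8.77).

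Another 2 called probes marked transcripts that were brighter in T+ than in all other clones. CUST_55055 (Dapma7bEVm003607) had 7.76, 6.79, 6.57 and 6.60 in clone 16 and 7.08, 6.91, 6.80 and 7.15 in clone 17, against 8.80, 8.12, 8.24 and 8.63 in T+ and 6.77, 7.30, 7.08 and 7.06 in the wild type. The T+ arrays overlapped with no other clone. The bi-allelic clones were lower by 1.49 ± 0.21 on the log2 scale (SE, limma adjusted p = 0.020), with -1.52 for clone 16 (called, adjusted p = 0.048) and -1.46 for clone 17 (adjusted p = 0.083). The call was lost without T+ replicate 3, 7 or 9 or clone 17 replicate 7, with adjusted p-values of 0.0013 to 0.12 over the 16 arrays left out singly. It was also lost with slide as a block (adjusted p = 0.069), with the column of the slide as a block (adjusted p = 0.11) and with the mutant arrays alone.

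CUST_120878, a probe with no gene model in the tables used, had 3.89, 4.82, 4.62 and 4.42 in clone 16 and 4.16, 4.43, 4.58 and 3.83 in clone 17, against 6.25, 6.37, 5.85 and 6.09 in T+ and 3.78, 4.39, 5.19 and 4.61 in the wild type. It was well above background in 1 T+ array and in no other array. The bi-allelic level was 2.05-fold lower against the lowest detected signal, no firm bound because most T+ arrays were not well above background either. The fit gave a log2 difference of -1.80 ± 0.24 (SE, limma adjusted p = 0.015). Without T+ replicate 3 or T+ replicate 9 the probe was not called, with adjusted p-values of 0.0042 to 0.11 over the 16 arrays left out singly.

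In 2 called probes T+ lay with the wild type, and the bi-allelic clones were lower than T+. CUST_129324 (Dapma7bEVm015925) had 9.03, 9.88, 9.22 and 8.87 in clone 16 and 8.53, 8.33, 8.25 and 7.68 in clone 17, against 10.39, 11.06, 10.20 and 10.23 in T+ and 9.32, 10.38, 9.98 and 10.50 in the wild type. The bi-allelic arrays lay below all T+ arrays but clone 16 overlapped with the wild type. The log2 difference was -1.75 ± 0.26 (SE, limma adjusted p = 0.027). It was -2.28 ± 0.30 for clone 17 (adjusted p = 0.017) and -1.22 ± 0.30 for clone 16, which did not pass (adjusted p = 0.13). The difference between the clones, 1.05, did not pass either (adjusted p = 0.23).

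CUST_43037 (Dapma7bEVm019455) had 9.91, 10.47, 10.05 and 10.25 in clone 16 and 10.49, 10.86, 10.38 and 10.41 in clone 17, against 11.02, 11.31, 11.00 and 11.30 in T+ and 10.98, 11.21, 11.15 and 11.02 in the wild type. It was the only called probe in which all 8 bi-allelic arrays lay outside the range of both T+ and the wild type. The log2 difference from T+ was -0.81 ± 0.13 (SE, limma adjusted p = 0.040). CUST_129324 was called without 7 of the 16 arrays singly, with limma adjusted p-values of 0.014 to 0.12, and lost without any 1 of T+ replicates 3, 7 and 9, clone 16 replicates 3, 7 and 9, clone 17 replicates 7 and 9 and wild type replicate 7. CUST_43037 was called only when a replicate 5 of a mutant clone was the array left out, and its adjusted p-values over the 16 were 0.021 to 0.28.

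The last of the called probes was bright in clone 16 alone. CUST_48867 (Dapma7bEVm019270) had 9.52, 9.90, 7.31 and 8.96 in clone 16 and 3.80, 4.87, 3.78 and 3.85 in clone 17, against 3.81, 4.43, 3.89 and 4.12 in T+ and 3.82, 3.82, 3.79 and 3.83 in the wild type. It was well above background in the 4 clone 16 arrays and in no other array. Clone 16 was at least 13.0-fold higher than T+ (log2 difference 4.86 ± 0.43 SE, limma adjusted p = 0.00047), while clone 17 differed from T+ by 0.01 ± 0.43. The difference between clone 16 and clone 17 was 4.85 (adjusted p = 0.00049), and this was the probe called between them. The bi-allelic mean difference of 2.44 ± 0.38 (adjusted p = 0.034) is the mean of the 2 clone values, and the bi-allelic and T+ arrays overlapped. This bi-allelic call held without replicate 5 of any mutant clone and without clone 16 replicate 7, and was lost without any other array.

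**Figure D4:**
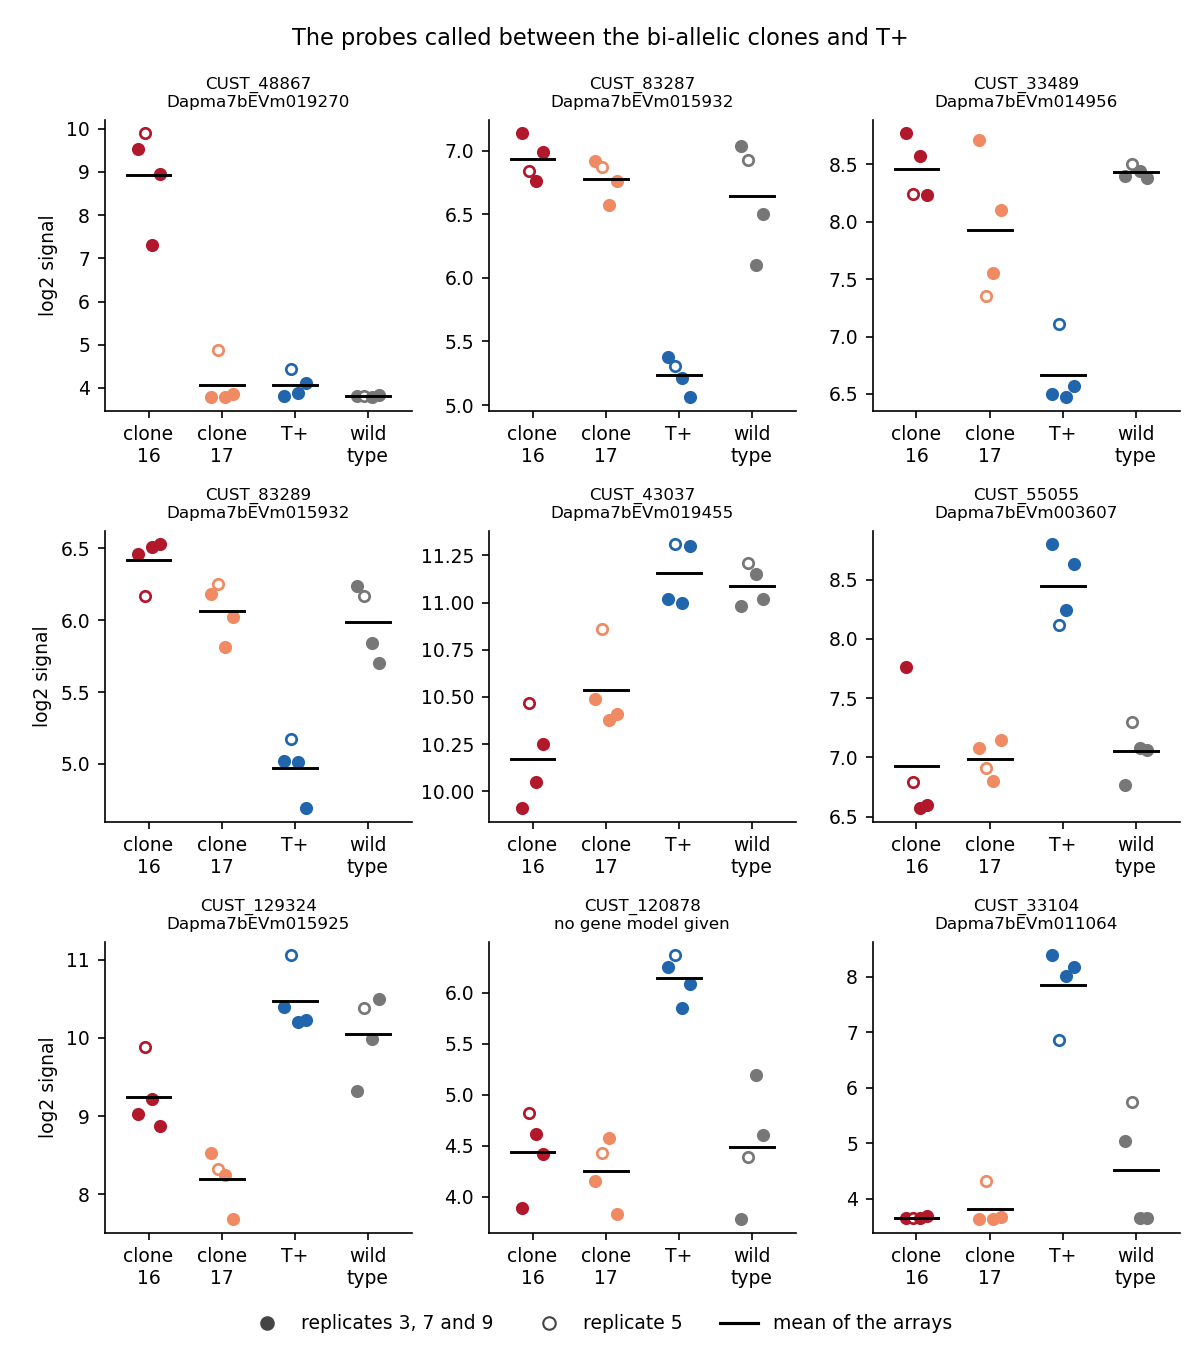
Log2 signal of the 9 probes called between the bi-allelic clones and T+ (a panel each, own vertical scale) in each array of clone 16, clone 17, T+ and the wild type, with black lines for the means of 4 arrays and open circles for replicate 5. CUST_48867 was high in clone 16 alone (7.31 to 9.90), and CUST_33104 in T+ alone (6.86 to 8.39).

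Clone 16 alone gave 1 more call. CUST_47683, with no gene model in the tables used, had 8.53, 8.18, 8.47 and 8.44 in clone 16 and 7.28, 7.67, 7.08 and 7.57 in clone 17, against 7.05, 7.73, 6.76 and 7.10 in T+ and 7.52, 7.31, 7.08 and 7.54 in the wild type. Clone 16 lay above all other arrays, with a log2 difference from T+ of 1.25 ± 0.20 (SE, limma adjusted p = 0.048). For the mean of the bi-allelic clones it was 0.74 ± 0.17 (adjusted p = 0.34), and 0.89 (adjusted p = 0.0037) without replicate 5 of clone 17 and of T+. No probe was called for clone 17 that was not also called for the mean of the clones.

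Set beside the wild type, T+ was seldom the middle genotype among the called probes. The bi-allelic mean lay nearer to the wild type than the T+ mean did in 6 of the 9 probes (CUST_33104, CUST_83287, CUST_83289, CUST_120878, CUST_55055 and CUST_33489), compared with 56% of all 17286 tested probes. In the same 6 probes the T+ and wild type arrays did not overlap, as was so in 1001 of all 17286 tested probes. The wild type mean was the middle one in 7 of the 9, the bi-allelic mean in 1 and the T+ mean in 1, whereas over all tested probes the shares were 29.6%, 39.8% and 30.6%. A call needs bi-allelic and T+ levels that are far apart, which by itself favours the wild type as the middle genotype, and these counts carry no test. The bi-allelic and T+ arrays did not overlap in 8 of the 9 called probes and in 209 of all tested probes (1.21%).

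The genes of growth and energy metabolism that the study listed under gene ontology terms were then followed. The supplement names 51 probes, of which 45 were tested and 6 were too dim. They had been chosen on these arrays, mostly for being lower in mutants than in the wild type, so their direction against T+ is not independent evidence. Chitotriosidase-1 was the only 1 called (background 0.0521%), while 15 were higher and 2 lower at an unadjusted p under 0.05, and 36 of 45 (80%) were above T+. Over all 17286 tested probes, 853 were higher and 734 lower at that unadjusted p, and 56.5% were above T+. The median log2 difference was 0.44, compared with 0.04 over all tested probes, 0.45 for clone 16 and 0.76 for clone 17. Without replicate 5 of clone 17 and of T+, 9 of the 45 were called, 7 higher and 2 lower (background 8.67%). They were the 4 chitinase probes, CUST_19559, CUST_72169, CUST_100299 and CUST_31810, and a putative carboxypeptidase M (CUST_55227, 0.88, limma adjusted p = 0.033).

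Cuticle proteins, the structural proteins that are laid down with chitin at a moult, varied widely between single females. None of the 11 tested probes under this term passed limma, and 2 had an unadjusted p under 0.05, both higher. Of the 11, 5 were not well above background in any T+ array, and all 11 had T+ means below the wild type means. The largest difference was in CUST_59848, cuticular protein 50Cb, with 7.22, 3.65, 9.20 and 7.25 in clone 16 and 5.97, 8.11, 3.61 and 3.66 in clone 17, against 3.71, 3.61, 3.62 and 3.66 in T+ and 9.34, 9.60, 9.89 and 9.13 in the wild type. It was well above background in 5 of 8 bi-allelic arrays and in no T+ array. The difference was 1.81-fold against the lowest detected signal, no firm bound (log2 difference 2.44 ± 0.91 SE, limma adjusted p = 0.54). The arrays that measured it were spread over both clones, and each clone also held arrays at the T+ level.

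For 5 of the 11 cuticle probes clone 16 and clone 17 lay on opposite sides of T+, as did 5361 of all 17286 tested probes. Of the 5, CUST_123147 differed from T+ by -0.01 in clone 16 and 0.15 in clone 17. It was well above background in no mutant array. The gap between the clones was widest in CUST_105652, annotated as a cuticle protein, where clone 16 differed from T+ by -4.35 and clone 17 by 1.58. The next was CUST_97562, cuticular protein hypothetical 28, with 6.84, 6.20, 9.06 and 6.94 in clone 16 and 14.52, 9.78, 13.30 and 13.23 in clone 17, against 13.22, 7.83, 12.29 and 12.98 in T+ and 15.00, 11.77, 11.49 and 14.84 in the wild type. Replicate 5 was the lowest array of both clone 17 and T+. The bi-allelic mean differed from T+ by -1.60 ± 1.14 (SE, limma adjusted p = 0.61), clone 16 by -4.32 ± 1.31 (adjusted p = 0.13) and clone 17 by 1.13 ± 1.31 (adjusted p of 0.999). The interval of the bi-allelic difference ran from -4.04 to 0.85 log2 units. The clone 16 value was -5.57 without replicate 5 of clone 17 and of T+ (adjusted p = 0.00072). CUST_67477, another cuticular protein 50Cb probe, had a bi-allelic difference of -0.07 ± 1.02, the smallest of this term in size, with clone 16 at -1.94 and clone 17 at 1.80.

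The chitinase was the only chitin-binding gene called. Of 8 tested probes under chitin binding, 1 was called (0.0521% of all tested probes) and 7 were above T+ (56.5% of all). The median log2 difference was 1.18 (0.04 over all). The 4 probes of the chitinase gene model are among the 8, so 1 transcript is counted 4 times. The smallest difference was in a cuticular protein analogous to peritrophins (CUST_87769), at 0.76 ± 0.39 (limma adjusted p = 0.54), which was well above background in 1 bi-allelic array, in no T+ array and in all 4 wild type arrays. Chitin deacetylase, which removes acetyl groups from chitin (CUST_100299), had 6.64, 6.87, 6.94 and 6.36 in clone 16 and 7.97, 7.18, 8.95 and 8.76 in clone 17, against 8.62, 7.62, 8.96 and 8.86 in T+ and 8.36, 7.95, 8.07 and 8.69 in the wild type. Clone 16 lay below the other 3 clones, and replicate 5 was the lowest of clone 17 and of T+. The bi-allelic difference was -1.06 ± 0.32 (adjusted p = 0.54), and -1.18 (adjusted p = 0.0068) without both of those arrays. In the amino sugar term none of 7 tested probes passed limma and 1 in each direction had an unadjusted p under 0.05. Its largest difference was 1.24 ± 0.87 in another protein of that family (CUST_18986), which was well above background in 2 bi-allelic arrays and no T+ array, and its smallest was -0.27 ± 0.19 in oscillin, a glucosamine-6-phosphate isomerase (CUST_25449).

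In the mevalonate pathway, which makes isoprenoids, the 4 probes of hydroxymethylglutaryl-CoA (HMG-CoA) synthase (Dapma7bEVm000199) were 0.32 to 0.63 log2 units above T+, none of them called and 3 of them at an unadjusted p under 0.05. CUST_72169 was called without replicate 5 of clone 17 and of T+ (0.70, limma adjusted p = 0.0059), and in that fit 3 of the 4 were called for clone 16 against T+ and none for clone 17. For CUST_72169 the levels were 9.06, 8.80, 9.12 and 9.09 in clone 16 and 8.64, 9.01, 8.14 and 8.10 in clone 17, against 7.86, 8.60, 8.05 and 7.96 in T+ and 9.96, 9.96, 10.06 and 10.06 in the wild type. All mutant arrays lay below the wild type, and replicate 5 was the highest of both clone 17 and T+. HMG-CoA reductase (CUST_31810), which catalyses the next step, ran the other way with 4.21, 4.47, 3.92 and 4.17 in clone 16 and 6.14, 3.84, 6.91 and 6.73 in clone 17, against 6.53, 3.81, 6.22 and 6.45 in T+ and 4.70, 4.57, 3.80 and 4.04 in the wild type. HMG-CoA reductase was well above background in 3 clone 17 arrays, 2 T+ arrays and no clone 16 or wild type array. Against the lowest detected signal clone 16 was 1.78-fold lower than T+, no firm bound. The bi-allelic difference was -0.70 ± 0.57 (limma adjusted p = 0.66), and -1.01 (adjusted p = 0.013) without replicate 5 of clone 17 and of T+. The clone 17 difference from T+ without them was 0.19.

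Lipid genes lay mostly above T+ without passing the test. Under cellular lipid metabolism 9 of 10 tested probes were above T+ (56.5% of all tested probes) with a median log2 difference of 0.51 (0.04 over all), and under lipid biosynthesis 12 of 14 with a median of 0.27, and no probe of either term passed limma (5 higher and 1 lower in each at an unadjusted p under 0.05). The 2 probes of a fatty acid hydroxylase domain containing gene (Dapma7bEVm010304) differed by 1.71 ± 0.47 and 1.49 ± 0.43 (limma adjusted p = 0.54 for both). CUST_82992, the first of them, had 7.99, 7.22, 9.08 and 8.24 in clone 16 and 7.63, 8.81, 6.59 and 6.86 in clone 17, against 6.81, 5.68, 5.21 and 6.69 in T+ and 8.85, 10.24, 9.79 and 9.05 in the wild type. Only clone 17 replicate 7 fell within the T+ range. A second gene with the same domain (Dapma7bEVm004383, CUST_103899) differed by -1.67 ± 0.52 (adjusted p = 0.54), with -2.82 in clone 16 and -0.52 in clone 17. Small differences were found in a fatty acid desaturase (CUST_85215), at 0.12 ± 0.20 with a 95% interval of -0.30 to 0.54, and in a probe annotated as peroxinectin (CUST_122552), at 0.10 ± 0.57 with an interval of -1.13 to 1.32. Under acyl transfer 8 of 9 tested probes were above T+ and none passed limma (3 higher and 0 lower at an unadjusted p under 0.05). The largest fitted log2 difference, 1.90, was in CUST_1758, which was well above background in 4 bi-allelic arrays and no T+ array. Its 1.53-fold difference against the lowest detected signal is no firm bound. The smallest was 0.22 ± 0.13 in a very long chain fatty acid elongase (CUST_38871).

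**Figure D5:**
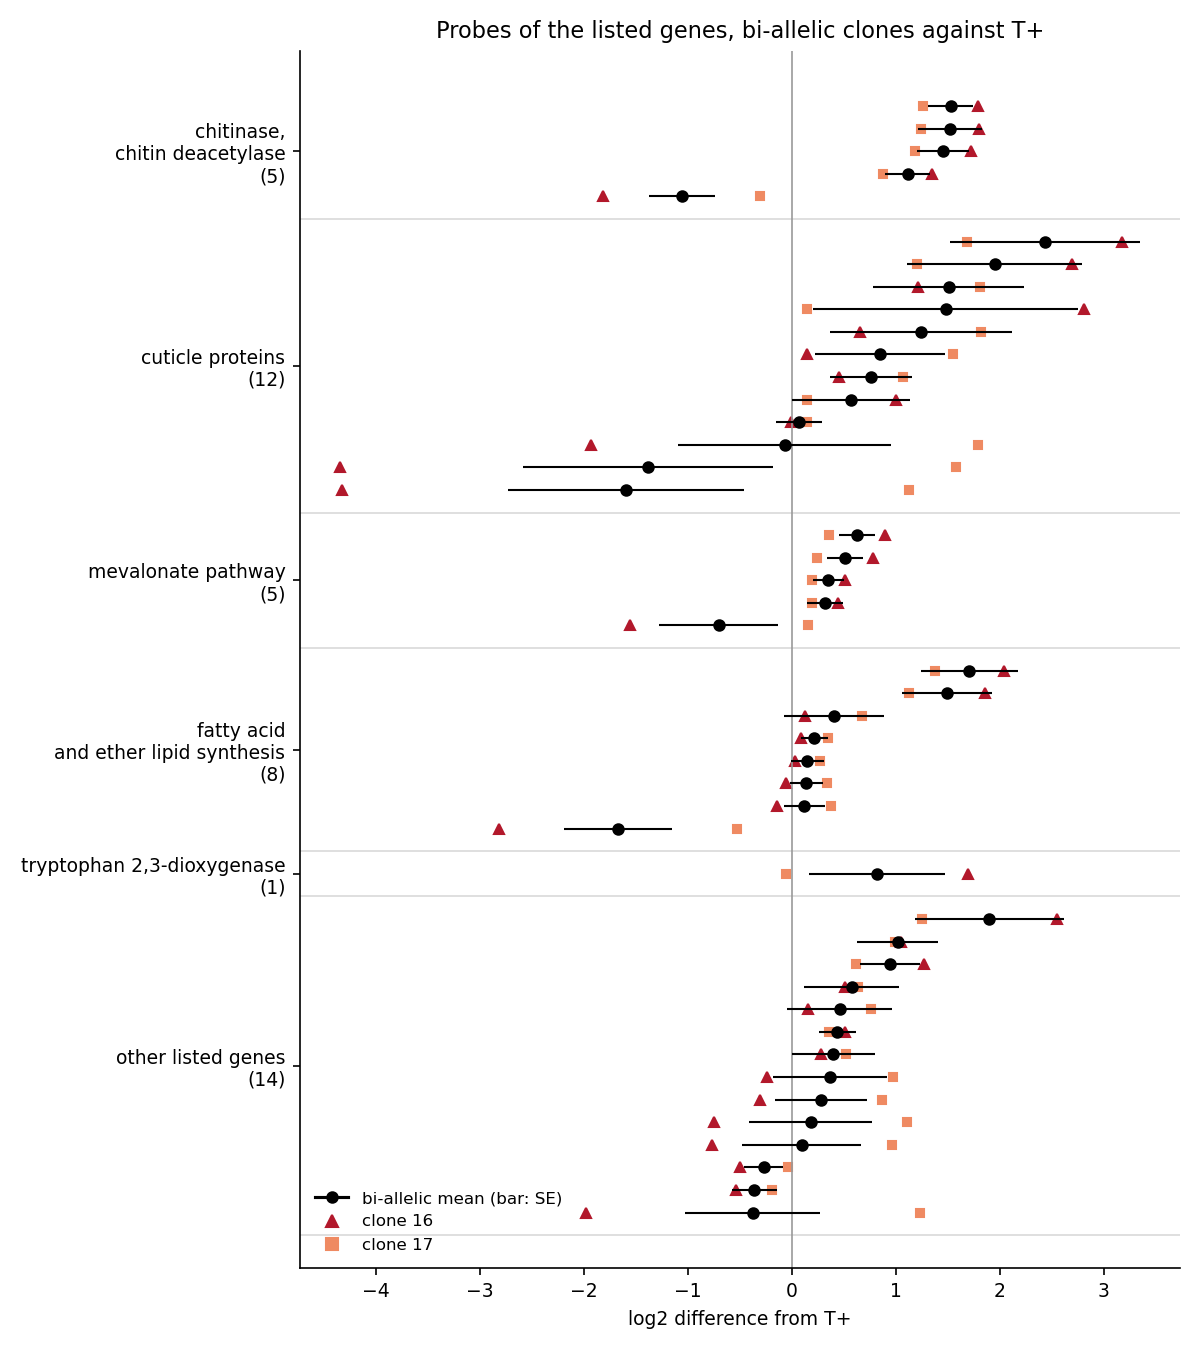
Log2 difference from T+ (horizontal axis) of the 45 tested probes listed under gene ontology terms, grouped here by gene name, for the mean of the bi-allelic clones (black, bars are SE), clone 16 (triangles) and clone 17 (squares). The 4 chitinase probes lie at 1.11 to 1.53 with both clones close together, while several cuticle proteins have the clones on opposite sides of T+.

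Tryptophan 2,3-dioxygenase, the entry enzyme of the kynurenine route, was well above background in clone 16 and in the 2 arrays that stood apart. Its probe CUST_19559 had 6.72, 7.09, 5.18 and 6.15 in clone 16 and 3.82, 6.67, 3.80 and 3.87 in clone 17, against 3.83, 6.93, 3.83 and 3.78 in T+ and 3.76, 3.80, 3.94 and 3.85 in the wild type. The counts were 3 of 4 clone 16 arrays, replicate 5 alone of clone 17 and of T+, and no wild type array. The bi-allelic difference was 0.82 ± 0.65 (SE, limma adjusted p = 0.66), with a 95% interval of -0.58 to 2.22. Clone 16 was 1.69 ± 0.75 above T+ (adjusted p = 0.22) and clone 17 differed by -0.05 ± 0.75. Without replicate 5 of clone 17 and of T+, the bi-allelic difference was 1.24 (adjusted p = 0.021), 2.47 in clone 16 (adjusted p = 0.00017) and 0.02 in clone 17. Kynurenine formamidase, the next enzyme (CUST_4536), was too dim to be tested. It was well above background in clone 16 replicate 5 (7.13) and T+ replicate 5 (7.09) only, and its other mutant arrays lay between 3.71 and 4.60. Phospholipase A2, which frees arachidonic acid from membranes (CUST_89819), was well above background in 1 bi-allelic array, in no T+ array and in all 4 wild type arrays. No other gene of serotonin, prostaglandin or insulin signalling was tied to a probe by the tables used.

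The probes that the supplement gives as changed in 1 clone alone were chosen on these arrays, so that their shift against T+ follows in part from the choice. Only the lists of T+ and clone 16 were followed here, and the study's probes specific to clone 17 were not. Over all 17286 tested probes 56.5% lay above T+ and 0.0521% were called. The medians over all were 0.04 for the bi-allelic clones, 0.06 for clone 16 and 0.02 for clone 17. Of 23 probes listed as lower in T+ alone, 20 were tested and 18 were higher in the bi-allelic clones (median log2 difference 0.47). Of these, 3 were called, CUST_33489, CUST_83287 and CUST_83289, and CUST_83287 and CUST_83289 read the same gene model. Of 12 listed as higher in T+ alone, 8 were tested, 7 were lower (median -0.34) and 2 were called, CUST_120878 and CUST_55055. Of 20 listed as lower in TA-, the study's name for clone 16, 17 were tested, with a median of -1.10 in clone 16 and 0.03 in clone 17, and 1 was called, CUST_43037. The largest differences of that list were those of CUST_103899 and CUST_61906 (Dapma7bEVm003961, -1.37 ± 0.40 SE, limma adjusted p = 0.54). CUST_61906 was called without replicate 5 of clone 17 and of T+ (adjusted p = 0.031). Of 9 listed as higher in clone 16 alone, 6 were tested, with medians of 0.83 in clone 16 and 0.07 in clone 17, and 1 was called, CUST_48867. CUST_77641 (Dapma7bEVm011665) was well above background in 1 bi-allelic array and no T+ array. Its 1.05-fold difference against the lowest detected signal is no firm bound (fitted log2 difference 1.03 ± 0.27, limma adjusted p = 0.52). This probe was called without replicate 5 of clone 17 and of T+ (adjusted p = 0.0052). Of the 201 probes listed as lower in all 3 mutants, 175 were tested and none passed limma between the bi-allelic clones and T+, 47 were higher and 1 lower at an unadjusted p under 0.05, and the median difference was 0.57 (853 higher, 734 lower and a median of 0.04 over all 17286). Of the 175, 13 were called higher and 2 lower without replicate 5 of clone 17 and of T+ (background 8.67%).

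The 9 called differences kept their direction on each slide and in every alternative that was run. In 8 of the 9 the bi-allelic and T+ arrays did not overlap, so any subset of arrays had to keep the direction. The kept direction on fewer arrays is therefore no separate support. The 2 slides held 6 mutant arrays each, 2 of every clone. On slide 1 and slide 2 taken alone the bi-allelic differences were -4.45 and -3.80 for CUST_33104, 1.64 and 1.58 for CUST_83287, 1.39 and 1.15 for CUST_83289, and 1.45 and 1.61 for CUST_33489. They were -1.85 and -1.13 for CUST_55055, -1.80 and -1.80 for CUST_120878, -1.62 and -1.88 for CUST_129324, -0.67 and -0.95 for CUST_43037, and 2.93 and 1.94 for CUST_48867. On slide 1 alone, with 2 arrays a clone, limma called no probe (2138 at an unadjusted p under 0.05), and on slide 2 alone it called 2 (933), neither of them among the 9. With slide as a block 5 probes were called, all among the 9, and CUST_55055, CUST_129324, CUST_43037 and CUST_48867 were lost (adjusted p of 0.069 to 0.082). With the column of the slide as a block CUST_33489, CUST_55055 and CUST_129324 were lost. With a term for the fourth column of the slides all 9 were called, and clone 16 against T+ gave 1881 calls in place of 8.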

How the data were processed

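Total RNA of single females was hybridised to 16 one-colour Agilent arrays. The intensity values deposited by the authors came from Agilent Feature Extraction 10.5.1.1 per the file headers, background-subtracted within each array (the methods name a later version, and the file of wild type replicate 7 states none). A second table deposited by the authors holds log2 values, quantile normalised with the median of each probe subtracted. Over the tested probes it differed from the values used here, after the same centring, by a median of 0.00193 (lowest r 0.9999), and it was an alternative. Its column medians ran from -0.0107 to 0.0080.

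Here the processed signal (floor 1, reached by 0 spots) was used. Control spots were left out, 49 to 122 outlier spots per array were set missing, no spot was saturated, and repeated spots of 2419 probes were averaged, which left 51424 gene probes. These were quantile normalised in log2. The 17286 probes above the 95th percentile of 2840 negative control spots on at least 4 arrays were tested, and 34138 were left out. A single limma model (limma 3.58.1, R 4.3.3) took a mean per clone over all 16 arrays, and p-values were adjusted by the Benjamini-Hochberg method across the 17286 probes. It was run on simulated data with independent noise in each probe and array. Those data lacked the first component seen here, so that run does not bear on how stable the calls are. Single values were compared by exact permutation of arrays.

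Where no array of a group was well above background, the dimmer group was raised to the lowest detected signal of each array and the fold is a bound. The brighter group kept its plain mean, so the bound is not firm where some of its arrays were not well above background. The number of arrays limits the precision. The members and lists were chosen with earlier results of these data known. Named were called probes without overlap that were well above background on at least 3 arrays of the higher side, further calls of each clone, the tryptophan genes, the largest and smallest difference of each list, and the 2 largest of each list of single-clone probes. The remaining named probes, such as the 4 of the chitinase gene, CUST_100299 and CUST_72169, were chosen after their values were seen. Gene names came from the study's supplement for 51 probes, and gene model identifiers for 329 probes (252 models), of which 0 matched the RefSeq table. Alternatives were other scalings, background corrections, filters, array weights, slide and replicate blocks, and left-out arrays. The fits with the column of the slide were chosen after seeing the data.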

Additional observations from a re-analysis of the deposited data

Results flagged for a closer look

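In 119 groups of 4 arrays checked for a value far from the others, 13 had one, where chance gives about 1 in 20. Replicate 5 of T+ or clone 17 was the far array in 9 of the 13. T+ replicate 5 scored 90.94 on the first component (other T+ arrays -103.6 to -98.99). Its level was 6.93 for tryptophan 2,3-dioxygenase, CUST_19559 (others 3.78 to 3.83), 7.09 for kynurenine formamidase, CUST_4536 (others 3.71 to 4.00), 3.81 for HMG-CoA reductase, CUST_31810 (others 6.22 to 6.53), and 7.11 for chitotriosidase-1, CUST_33489 (others 6.47 to 6.57). Clone 17 replicate 5 had 6.67 for CUST_19559 (others 3.80 to 3.87), 7.58 for CUST_1758, annotated as a transforming growth factor beta-induced protein (others 4.16 to 4.53), 4.32 for CUST_33104 (others 3.63 to 3.67) and 4.87 for CUST_48867 (others 3.78 to 3.85).

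The other 4 far values were CUST_33104 in clone 16 replicate 9 (3.69, others 3.65), CUST_18986 in clone 16 replicate 7 (6.50, others 3.75 to 3.84) and in clone 17 replicate 3 (9.44, others 4.22 to 4.50), and CUST_87769 in T+ replicate 3 (4.45, others 3.68 to 3.77). The values of CUST_33104 in clone 16 and clone 17 are not well above background.

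The 2 bi-allelic clones differed in CUST_48867. Clone 16 minus clone 17 was 4.85 on the log2 scale (limma adjusted p = 0.00049), with 4.86 for clone 16 and 0.01 for clone 17 against T+.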

How the results depend on the processing

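The 9 called differences kept their direction in all alternatives, which the lack of overlap in 8 of them fixed for fits on fewer arrays. Their calls held in 99 of 144 values with 1 array left out and in 140 of 179 under other settings. Counts of called probes for the bi-allelic clones, clone 16 and clone 17 against T+, in that order, were 9, 8 and 5. They were 2278, 4087 and 26 with array weights, 1498, 3193 and 1 without replicate 5 of T+ and clone 17, and 25, 27 and 20 with an analysis of variance before the contrast. Slide 1 alone gave 0, 0 and 0 by limma (2138, 2793 and 416 at an unadjusted p under 0.05) and slide 2 alone 2, 35 and 0 (933, 1475 and 671). Slide as a block gave 5 for the bi-allelic clones. The column of the slide as a block gave 5 for clone 16 and 1 for clone 17, and the fourth column as a term 1881 for clone 16; both fits were chosen after seeing the data. Leaving out 1 array gave 3 to 406, 4 to 2642 and 1 to 6. The cause of these differences was not tested. The replicate block gave 8, 13 and 3. The chitotriosidase-1 call (CUST_33489) was the 1 of the 9 lost with it (adjusted p = 0.065). No label says what a shared number marks, and 7 of 12 same-number pairs had r over 0.1 (range -0.203 to 0.795), among them all 4 pairs of clone 17 with T+ (0.215 to 0.795), while 8 of 12 arrays correlated best with their own number. The values were centred on clone means, so a far replicate 5 in both clone 17 and T+ by itself shifts their other arrays alike. These correlations therefore cannot decide whether shared numbers pair arrays, and the block was kept as an alternative. The difference in probes well above background was 748.2 to 1423 without 1 array and 1544 without both replicates 5.

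Some uncalled differences changed sign. CUST_67477 was 0.17 with normexp, 0.17 with the column block, 2.55 on slide 2 and -0.86 to 0.43 without 1 array. CUST_122552 was -0.17 with array weights, -0.99 on slide 1, -0.27 without both replicates 5 and -0.43 to 0.34 without 1 array. CUST_85215 was -0.058 on slide 1. On slide 2, CUST_19559 was -0.50, CUST_25449 0.11, CUST_31810 0.28 and CUST_97562 0.87. Folds of probes near background are bounds at best, and normexp gave -1.95 for CUST_33104 against -4.12.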
